A study of Mus musculus with 6 samples.

Results

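The alpha and theta glutathione transferases are cytosolic enzymes of the liver, and 7 of their genes were followed here: Gsta1, Gsta2, Gsta3 and Gsta4 of the alpha class, and Gstt1, Gstt2 and Gstt3 of the theta class. Every probe set that carries the symbol of exactly 1 of these genes in the platform's gene table was taken, whatever its value. This gave 6 probe sets, 1 for each gene except Gstt3, which had none and is not analysed here, out of 12488 probe sets in the table and 8252 genes with a probe set of their own. The RNA came from livers of C57BL/6 mice, an inbred laboratory strain, kept for 12 weeks on either a high-fat Western-style diet or a low-fat diet. Each diet had 3 Affymetrix arrays, and both groups share the strain, the tissue and the length of feeding. The keywords of the labels name a deficiency of the LDL receptor, but the labels give these 6 samples no genotype other than C57BL/6. The labels do not state the age and sex of the mice, the make-up of the diets or whether an array holds 1 mouse or a pool, so p-values measure the spread between these arrays, which may be technical.

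Glutathione transferases join the tripeptide glutathione to electrophilic compounds, which makes drugs, environmental toxins and products of lipid oxidation more soluble and ready for export. Alpha class enzymes are abundant in hepatocytes, and several also reduce lipid hydroperoxides. Theta class enzymes act on small halogenated compounds and on sulfate esters. The transcription of many transferase genes is known to respond to NRF2, a factor activated by electrophiles, and to the drug-sensing receptors CAR and PXR.

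On the high-fat diet Gsta2 and Gstt2 fell, 3.20-fold and 2.88-fold, 1 gene from each class. Gsta4 lay lower on every high-fat array but did not pass the test, and the abundant Gsta3 and Gstt1 had array values that overlapped between the diets. Gsta1 gave no signal above the floor, an intensity of 68.9 under which values were treated as equal. The test was limma's moderated test across 8950 probe sets, with p-values adjusted by Benjamini and Hochberg, and a transcript was called at an adjusted p under 0.05. Of the 5 member probe sets tested, 2 were called, both lower on the high-fat diet, where 0.827% of all tested probe sets were called in either direction and 0.425% were called lower. All 5 had each of the 6 arrays above the floor, so none entered the test through 1 diet only.

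In the mouse genome (RefSeq annotation of GRCm38.p6) the genes form 3 groups. Gsta4, Gsta1 and Gsta2 form a cluster on chromosome 9. The predicted protein-coding genes Gm3776 and Gm10639, and the genes Omt2a and Omt2b, also lie within it. Gsta3 lies alone on chromosome 1. Gstt3, Gstt1, Gstt4 and Gstt2 form a row on chromosome 10 between Ddt and Mif. Each of the clusters on chromosomes 9 and 10 thus held 1 called gene and 1 tested gene that did not pass. Probe sequences were not used here, so how far the probes for Gsta2 also bind transcripts of its close relatives was not tested, and the probe set of Gsta2 carries no suffix that marks shared probes.

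The upstream sequences of Gsta2, which changed most clearly, and of Gsta1 in the same cluster, which gave no signal, are shown because the pair resemble each other. Both stretches are from RefSeq on GRCm38.p6, run 5′ to 3′ on the strand of the gene, and cover bases -250 to -51 before the annotated start. That of Gsta2 is chr9:78347196-78347395 on the minus strand and that of Gsta1 is chr9:78230419-78230618 on the plus strand. Capitals mark bases that differ from the partner or have no counterpart in a global alignment of the pair.
Gsta2: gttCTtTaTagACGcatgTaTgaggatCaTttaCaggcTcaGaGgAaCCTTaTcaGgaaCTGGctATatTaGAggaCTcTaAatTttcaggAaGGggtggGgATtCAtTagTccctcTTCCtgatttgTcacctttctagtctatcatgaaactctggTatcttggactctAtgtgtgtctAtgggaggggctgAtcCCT
Gsta1: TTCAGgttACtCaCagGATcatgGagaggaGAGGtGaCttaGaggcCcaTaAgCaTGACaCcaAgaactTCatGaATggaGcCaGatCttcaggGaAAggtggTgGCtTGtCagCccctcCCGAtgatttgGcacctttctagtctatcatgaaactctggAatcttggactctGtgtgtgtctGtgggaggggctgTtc
Of the 200 bases of Gsta2, 142 (71.0%) were identical to Gsta1 in this alignment, and the 100 bases nearest to the start held 81 of these. The same alignment with the upstream stretch of Gsta3 gave 58.5% identity, and with that of Gstt1, a gene of another class, 47.5%, which is the level that gapped alignment of unlike stretches reached here.

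Windows of 300 bases, from 250 before to 50 after the start, were in the RefSeq table for Gsta1, Gsta2, Gsta3, Gstt1 and Gstt3, the last with 2 starts. Both strands were searched for 3 short motifs, whose matches in these windows do not overlap. The core of the antioxidant response element, TGACNNNGC, which NRF2 binds, was found in the window of Gsta3, as TGACATTGC at bases -121 to -113, and in no other of these windows. Of all 32851 windows in the table, 12.4% held this motif. The core bound by the aryl hydrocarbon receptor, GCGTG, was found in the windows of Gsta1 and Gsta2, at bases -2 to 2 and -7 to -3, and in 32.4% of all windows. The nuclear receptor core AGGTCA was in none of the member windows and in 16.3% of all windows. These matches describe letters in the windows and not bound sites. Sequence further upstream was not searched, so a window without a match does not show that the gene lacks the motif.

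Gsta2, an alpha class transferase of hepatocytes, had intensities of 1135, 899 and 913 on the high-fat arrays 1, 2 and 3 and of 3065, 3082 and 3236 on the low-fat arrays 1, 2 and 3. The diets did not overlap, and the lowest low-fat value was 2.70 times the highest high-fat value. Gsta2 fell to a mean of 982 ± 133 (SD, n = 3) from a low-fat mean of 3128 ± 94.4 (SD, n = 3), and its log2 fold change was -1.68 ± 0.13 (SE). This is a 3.20-fold lower level (95% interval 2.62 to 3.91), with an adjusted p of 0.000752 by limma. The low-fat arrays differed little, with a coefficient of variation of 3.02%, against 13.5% on the high-fat diet. Gsta2 was the probe set with the fourth smallest p of all tested, and it was called under every alternative that was run, each array left out included.

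Gsta4 encodes the alpha class enzyme best known for conjugating 4-hydroxynonenal, an aldehyde formed when membrane lipids oxidise. Its intensities were 280, 182 and 125 on the high-fat arrays 1, 2 and 3, and 411, 471 and 510 on the low-fat arrays. These values did not overlap either, and the high-fat arrays were widely spread, with a coefficient of variation of 40.1% against 10.8%. High-fat arrays averaged 196 ± 78.6 (SD, n = 3) and low-fat arrays 464 ± 49.9 (SD, n = 3), for a log2 fold change of -1.32 ± 0.30 (SE). The ratio between low-fat and high-fat was 2.49 (95% interval 1.55 to 3.99), and the adjusted p by limma was 0.120, which did not pass. It stayed uncalled under 18 of 20 alternatives, with adjusted p-values by limma up to 0.438. The exceptions were the fit without high-fat array 1, its highest high-fat array, and that with the floor at the 50th percentile. Without that array the log2 fold change was -1.61 with an adjusted p of 0.0406. With that floor, which raised the value of high-fat array 3, it shrank to -1.14 with an adjusted p of 0.0403.

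Gsta3, an alpha class transferase whose best known substrate is the activated form of aflatoxin, had intensities of 7312, 5847 and 4814 on the high-fat arrays and of 6862, 7571 and 7589 on the low-fat arrays. High-fat array 1 lay within the low-fat range, while arrays 2 and 3 lay below it. The means were 5991 ± 1255 (SD, n = 3) and 7341 ± 415 (SD, n = 3), a log2 fold change of -0.31 ± 0.16 (SE) whose adjusted p by limma was 0.624. The 95% interval of the ratio between low-fat and high-fat ran from 0.968 to 1.59, which leaves out a difference as large as that of Gsta2. Without high-fat array 3 the log2 fold change was -0.17.

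The probe set of Gsta1 stayed under the floor on all 6 arrays, at 4.1, 20.9 and 21.7 on the high-fat and 8.4, 11.0 and 20.2 on the low-fat arrays. It was not tested and no fold is given. Its suffix, _i_at, is the one Affymetrix gives to probe sets with fewer probes than the design asks for, so a signal under the floor here does not show that the transcript was absent.

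**Figure D1:**
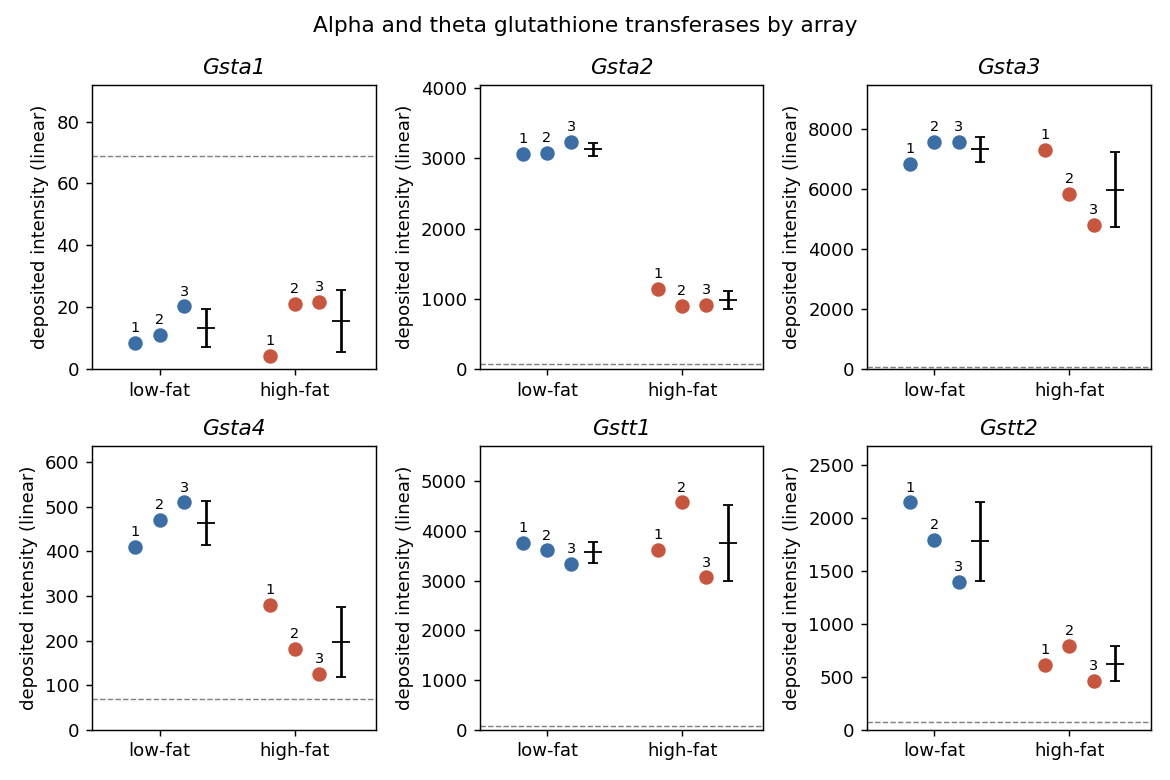
Deposited linear intensity of the 6 member probe sets on each array, by diet. Points are arrays with their numbers, black marks show the mean and SD of 3 arrays, the dashed line is the floor of 68.9, and each panel has its own vertical scale from 0. Gsta2, Gsta4 and Gstt2 show no overlap between the diets, Gsta3 and Gstt1 overlap, and Gsta1 lies under the floor on every array.

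Gstt2, a theta class transferase active on sulfate esters, had intensities of 614, 790 and 460 on the high-fat arrays 1, 2 and 3 and of 2143, 1790 and 1398 on the low-fat arrays. All low-fat arrays lay above all high-fat arrays, the lowest at 1.77 times the highest high-fat value, and both diets showed a similar relative spread, with coefficients of variation of 26.6% and 21.0%. Gstt2 fell to a mean of 622 ± 165 (SD, n = 3) from a low-fat mean of 1777 ± 373 (SD, n = 3), and its log2 fold change was -1.53 ± 0.22 (SE). This is a 2.88-fold lower level (95% interval 2.03 to 4.09), with an adjusted p of 0.0177 by limma. The call was lost without low-fat array 1 (adjusted p = 0.0795) or low-fat array 2 (0.0832), with a variance prior that ignores intensity (0.0868) and with dim probe sets kept in the test (0.243), while the log2 fold change lay between -1.77 and -1.33 under all alternatives.

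Gstt1 encodes the other theta class enzyme with a probe set, known for its action on small halogenated alkanes. Its intensities were 3613, 4570 and 3063 on the high-fat and 3752, 3606 and 3338 on the low-fat arrays. The low-fat values lay inside the range of the high-fat values. The means were 3749 ± 763 (SD, n = 3) and 3565 ± 210 (SD, n = 3), a log2 fold change of 0.05 ± 0.15 (SE) whose adjusted p by limma was 0.968. The 95% interval of the log2 fold change ran from -0.29 to 0.40, so a difference of the size seen for Gstt2 lies outside it. The sign turned without high-fat array 2, at -0.10, and with the 3' to 5' ratio of the Gapdh controls as a covariate, at -0.07.

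The spread between arrays of a diet was shared in part by the members. High-fat array 3 had the lowest value of its diet for Gsta3, Gsta4, Gstt1 and Gstt2, at -0.29, -0.57, -0.27 and -0.40 from the high-fat mean on the log2 scale. Gsta2 on that array was -0.10 from the mean, with array 2 slightly lower at -0.12. High-fat array 1 was the highest of its diet for all 3 tested alpha class genes, by 0.22 for Gsta2, 0.31 for Gsta3 and 0.60 for Gsta4. High-fat array 2 was the highest for both theta class genes, by 0.31 for Gstt1 and 0.38 for Gstt2. On the low-fat diet array 1 was lowest for the alpha class genes and array 3 lowest for both theta class genes. The pattern rests on 3 arrays a diet and is given as values only.

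The unequal changes within a class were compared through log2 ratios within each array, which remove what all probe sets of an array share. Relative to Gsta3, Gsta2 was lower on the high-fat diet by -1.37, and the array values did not overlap, between -1.47 and -1.17 on the high-fat and between -0.07 and 0.07 on the low-fat arrays, with the low-fat mean set to 0. Relative to Gsta3, Gsta4 lay between -1.28 and -0.72 on the high-fat and between -0.07 and 0.09 on the low-fat arrays. Relative to Gstt1, Gstt2 differed by -1.58, with high-fat arrays between -1.71 and -1.51 and low-fat arrays between -0.23 and 0.22. Each of these 3 comparisons gave p = 0.1 in an exact two-sided permutation test, also after Benjamini-Hochberg adjustment. That is the smallest value that 3 arrays against 3 allow, so the design cannot reach 0.05. The pairs were not planned, and each set a member without overlap against one of its class with overlap. Their separation thus follows in part from the choice of pairs, and no conclusion is drawn from it. Over all tested probe sets 6.76% lay lower on the high-fat diet with no overlap between the arrays of the diets, against 3 of the 5 tested members.

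**Figure D2:**
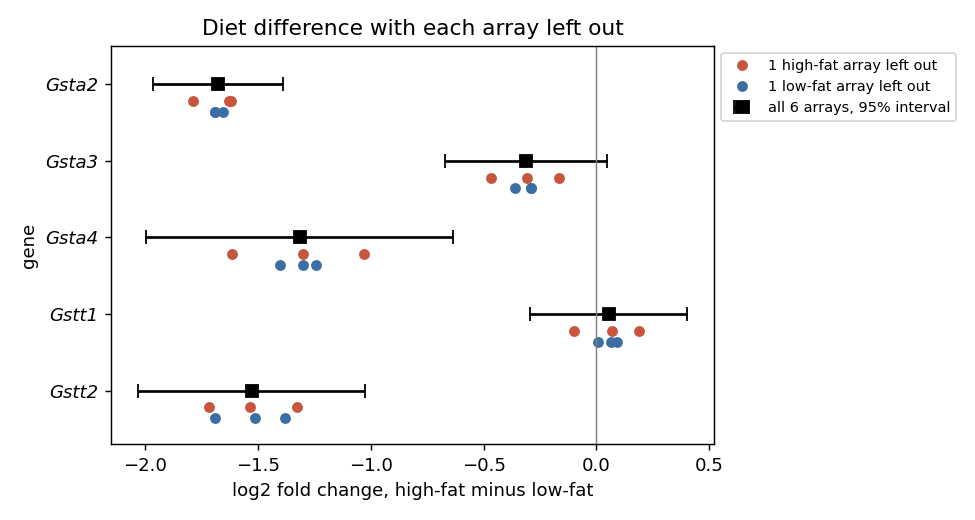
Log2 fold change between the diets (high-fat minus low-fat, horizontal axis) for the 5 tested genes. Black squares with bars are the values from all 6 arrays with their 95% interval, red points leave out 1 high-fat array and blue points 1 low-fat array. Gsta2 stays between -1.79 and -1.62, Gsta4 spreads between -1.61 and -1.03, and Gstt1 lies on both sides of 0.

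The likeness of 2 transcripts was measured as the root mean square difference of their log2 values over the 6 arrays, each centred on its own mean. Among the members, the values were 0.32 for Gsta2 with Gsta4, 0.33 for Gsta2 with Gstt2 and 0.28 for Gsta3 with Gstt1. Gsta2 and Gsta3, of the same class, differed by 0.69, and Gstt1 and Gstt2 by 0.80. Of all other genes with a tested probe set, the closest to Gsta2 were Bcl6 at 0.15, Lifr at 0.19 and Fdps at 0.21, where the median over all was 0.89. Bcl6 encodes a transcriptional repressor, Lifr the receptor of leukemia inhibitory factor and Fdps the farnesyl diphosphate synthase of cholesterol synthesis. All 3 were themselves called lower on the high-fat diet, with folds of 3.38, 2.71 and 3.61 and adjusted p-values of 0.00242, 0.00965 and 0.000402. This Fdps probe set carries the suffix for probes shared within a gene family, so its reading may not be of Fdps alone. The closest to Gstt2 were Fdps, through another probe set, at 0.235, Bcl6 at 0.239 and Tef, a transcription factor of clock output, at 0.240. Tef had a ratio of 2.25 between low-fat and high-fat and did not pass (adjusted p = 0.160), but passed with the replicate number as a block (0.0171) and with the Gapdh ratio as a covariate (0.00644). Lifr lost its call when array 2 of the high-fat diet (0.0515) or of the low-fat diet (0.0561) was left out. It also lost it with a variance prior that ignores intensity (0.0686) and with dim probe sets kept in the test (0.183). With dim probe sets kept, Bcl6 (0.104) and the Fdps probe set close to Gstt2 (0.0805) lost their calls too. With 6 arrays, likeness to a gene that differs between the diets mostly finds other genes that do.

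Neighbouring genes were read as well, chosen after the member values were seen. Ddt, the D-dopachrome tautomerase gene next to Gstt3, averaged 7865 ± 963 (SD, n = 3) on high-fat and 9247 ± 423 (SD, n = 3) on low-fat arrays (log2 fold change -0.24, adjusted p = 0.676). Both probe sets of Mif, next to Gstt2, had too few arrays above the floor to be tested. Those of Omt2b, within the Gsta cluster, and of Dppa5a at its edge lay under the floor on all arrays. The remaining neighbours, Cilk1, Gm3776, Gm10639, Omt2a, Gstt4, Tmem14a and Khdc1a, had no single-gene probe set here.

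A further 8 lists, of which 5 hold genes of glutathione use and export and 3 hold NRF2 targets, targets of the drug-sensing receptors and regulators, had 80 tested genes. With 1 probe set per gene, 1 of the 80 rose (Abcg2, an exporter), 1 fell (Cyp2b10, a cytochrome P450) and 78 did not pass, where 0.915% of 6557 genes were called in either direction and 0.458% in each direction. The median log2 fold change of the tested members was -1.32, beside 0.01 over all genes.

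Glutathione synthesis and recycling had 0 of 6 genes called, 5 of them higher on the high-fat diet and a median log2 fold change of 0.28. Gclc, the catalytic subunit of glutamate-cysteine ligase and the first step of glutathione synthesis, had intensities of 3856, 2788 and 3850 on the high-fat and 1769, 2670 and 2692 on the low-fat arrays. These did not overlap, but the log2 fold change of 0.57 had an adjusted p of 0.391. Glrx, a glutaredoxin, stood at 0.28 on the same scale (adjusted p = 0.577).

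The other glutathione transferases, of the mu, pi, omega, zeta, kappa and microsomal classes, had 0 of 13 genes called, 5 above and 8 below 0, with a median of -0.03. The microsomal Mgst3 had the smallest p, with a ratio of 1.52 between low-fat and high-fat and overlapping arrays (adjusted p = 0.461), and Gstm6 had a ratio of 1.30 (adjusted p = 0.500). Probe sets of Gstm1, Gstm3 and Gstm5 include ones with the suffix for probes shared within a gene family, so their values cannot be fully told apart.

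Breakdown of glutathione and mercapturate formation had 0 of 8 genes called and a median of -0.07. Ggt5, a gamma-glutamyl transferase that acts on leukotrienes, had intensities of 126, 86.6 and 103 on the high-fat arrays, while its low-fat values of 39.4, 67.4 and 58.7 all lay under the floor. It entered the test only through the high-fat arrays, its fitted log2 difference depends on the floor, and no fold is given. The aminoacylase gene Acy1 had -0.36 (adjusted p = 0.582). Peroxidases and aldehyde enzymes that use glutathione had 0 of 7 called and a median of -0.10, with Hagh, a glyoxalase, at -0.29 on the log2 scale (adjusted p = 0.446) and Adh5, the formaldehyde dehydrogenase, at -0.23 (adjusted p = 0.687).

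Among the 5 tested transporters of the export list 1 rose. Abcg2, an efflux pump of the canalicular membrane, had intensities of 1976, 1617 and 1714 on the high-fat and 854, 997 and 1151 on the low-fat arrays, with no overlap. It rose by 0.83 on the log2 scale, with an adjusted p of 0.0436 by limma. That call was lost without any array other than low-fat array 3, with adjusted p-values between 0.0796 and 0.160. It held under 9 of the 20 alternatives. Abcc6, a further transporter of the same superfamily, stood at a log2 fold change of -0.19 (adjusted p = 0.880).

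Targets of NRF2 outside the glutathione lists had 0 of 15 genes called, 11 of them above 0, and a median of 0.07. Ugdh, which makes the sugar donor for glucuronidation, averaged 4316 ± 210 (SD, n = 3) on high-fat and 6022 ± 634 (SD, n = 3) on low-fat arrays, and its adjusted p was 0.180. Cbr1, a carbonyl reductase, stood at a log2 fold change of -0.38 (adjusted p = 0.537). Nqo1 and Hmox1 are widely used as readouts of NRF2 and were picked for that use and not by the rule for named genes. They had log2 fold changes of -0.28 and 0.05, with adjusted p-values of 0.914 and 0.974. The Nqo1 probe set carries the suffix for probes shared within a gene family, so its reading may not be of Nqo1 alone. Its intensities were 67.8, 114 and 157 on the high-fat and 89.5, 117 and 211 on the low-fat arrays. The lowest of these lay under the floor. With values so dim and so spread, this probe set cannot show that Nqo1 was unchanged.

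Of 9 tested targets of CAR, PXR and the aryl hydrocarbon receptor, 1 fell, and the median was -0.18. Cyp2b10, a cytochrome P450 and the classical CAR target, had intensities of 315, 320 and 265 on the high-fat and 819, 646 and 677 on the low-fat arrays. It was 2.38-fold lower (adjusted p = 0.0173) and lost that call when high-fat array 2 (0.0556) was left out, or low-fat array 1 (0.0795), 2 (0.0684) or 3 (0.0509). Cyp2b10 also lost its call with a variance prior that ignores intensity (0.0547) and with dim probe sets kept in the test (0.126). The same held with both arrays numbered 3 left out. Cyp3a25 had a ratio of 1.93 between low-fat and high-fat and did not pass (adjusted p = 0.0579), but it passed under 7 of the 20 alternatives, with adjusted p-values from 0.0110 to 0.0489.

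Regulators of transferase genes had 0 of 17 called, 14 below 0 and a median of -0.23. Bach1, a repressor that competes with NRF2, had a ratio of 1.81 between low-fat and high-fat (adjusted p = 0.342), and Jun, a subunit of AP-1, a ratio of 1.57 (adjusted p = 0.481). Bach1 passed with the Gapdh ratio as a covariate (adjusted p = 0.0456) and stayed uncalled under 19 of 20 alternatives. Chosen for their roles and not by the rule for named genes, transcript levels of Nfe2l2, which encodes NRF2, and of Nr1i3, which encodes CAR, had log2 fold changes of 0.38 and -0.23, with adjusted p-values of 0.611 and 0.745. These levels do not measure the activity of the factors.

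**Figure D3:**
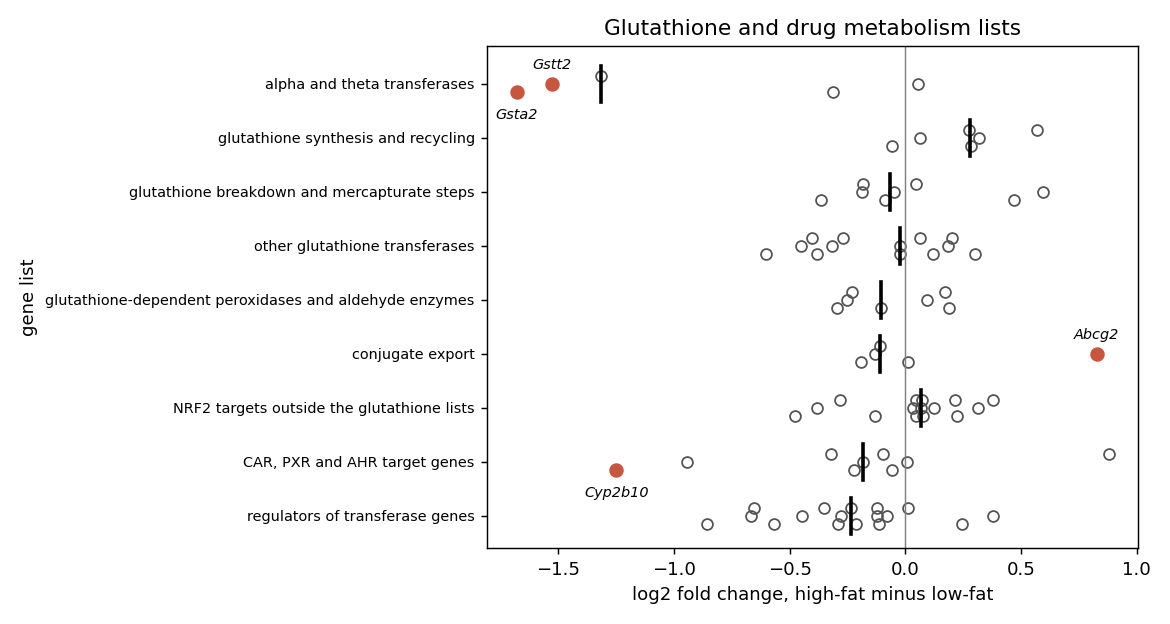
Log2 fold change between the diets (high-fat minus low-fat, horizontal axis) of each tested gene, by list; filled red points passed an adjusted p of 0.05, open points did not, and the black bar is the median of the list. Gsta2 and Gstt2 lie further from 0 than any gene of the 8 other lists, which hold 80 tested genes, of which Abcg2 and Cyp2b10 passed.

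Marker levels and RNA quality were set beside the members. Hepatocyte markers had 9 of 10 genes tested, 0 called and a median of 0.00, and their summed intensity ran from 136749 to 168627 on the high-fat and from 143818 to 171588 on the low-fat arrays. Markers of the pericentral zone, where many transferases are highest, had 0 of 8 called and a median of -0.11, and periportal markers had 0 of 8 called and a median of -0.26. Of 12 macrophage markers 11 were tested and 0 were called. All 11 were above 0 in log2 fold change, at a median of 0.40. Their summed intensities ran from 10904 to 13978 on the high-fat and from 8168 to 10263 on the low-fat arrays, and their part in the member values was not tested. Pancreatic acinar markers, all 6 on the array above 0 in log2 fold change and 0 called, had a median of 0.73. They summed to between 2241 and 12540 on the high-fat and between 2238 and 7209 on the low-fat arrays. Each was highest on array 2 of both diets, such as Ctrb1 at 3669 on high-fat and 2410 on low-fat array 2. The part of acinar tissue in the member values was not tested. Cholangiocyte, stellate, endothelial, adipocyte and erythroid lists had 0 genes called and medians of 0.22, 0.04, -0.10, 0.29 and 0.38. In bulk tissue fewer cells of a type and less RNA per cell cannot be told apart. The 3' to 5' ratio of the Gapdh controls was 1.22, 1.23 and 0.89 on the high-fat and 1.04, 1.07 and 0.82 on the low-fat arrays, lowest on both arrays numbered 3 (exact two-sided permutation p = 0.3 between the diets). That of beta-actin averaged 1.79 ± 0.17 (SD, n = 3) on high-fat and 1.65 ± 0.10 (SD, n = 3) on low-fat arrays (exact p = 0.3), and its arrays numbered 3, at 1.79 and 1.75, were not the lowest. That of pyruvate carboxylase averaged 5.84 ± 2.83 (SD, n = 3) and 3.64 ± 0.93 (SD, n = 3) (exact p = 0.4), lowest on both arrays numbered 3 at 2.62 and 2.65. All 3 ratios averaged higher on the high-fat diet, that of Gapdh at 1.12 against 0.98. The smallest p that 3 arrays against 3 allow is 0.1, so these tests cannot show that RNA quality was equal. With both arrays numbered 3 left out, Gsta2 and Gstt2 were still called, at log2 fold changes of -1.61 and -1.49 with adjusted p-values of 0.00398 and 0.0144. With the Gapdh ratio as a covariate they were at -1.70 and -1.77, with adjusted p-values of 0.000701 and 0.00144, and Gsta4 was at -1.49 with an adjusted p of 0.0757.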

How the data were processed

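The deposited intensities are linear, 1 per probe set and array, as made by the authors; the software and background correction are not given in the sources used. Array means without the lowest and highest 2% of values agreed within 5%, so the deposited scaling was kept. Values under the pooled 30th percentile (68.9) were set to it and log2 was taken, so folds of dim genes are understated. Without the 66 controls, 8950 probe sets had at least 3 of 6 arrays above the floor and went into limma 3.58.1 (R 4.3.3, eBayes with a trend, two-sided, Benjamini-Hochberg). Single values were compared with exact permutation tests in SciPy 1.17.1. The method was checked on simulated data. Precision is limited by the number of arrays, and whole-array scaling hides any shift common to most transcripts.

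Gene names came from the platform's gene table, where 10855 had 1 symbol, 396 several and 1237 none or were not listed. Of the first, 10839 matched a RefSeq gene ID. Array medians ran from 171 to 188. Lists use the brightest probe set of a gene. Named genes were all members, list genes past the threshold (where fewer than 2 passed, the 2 with the smallest p), and the 3 genes most like each called member; others are marked in the text as chosen otherwise. The members and lists were chosen with earlier results of these data known. Alternatives changed the scaling, floor, filter, variance model, array weights, replicate block, arrays left out and probe sets used.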

Additional observations from a re-analysis of the deposited data

How the results depend on the processing

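Of 100 member values recomputed under 20 alternatives, 92 kept their direction and their side of the threshold. Of the 20 alternatives, 2 were chosen after seeing the data, namely leaving out both arrays numbered 3 and the Gapdh ratio as a covariate. Gsta2 was called under all 20, with adjusted p-values from 0.000373 to 0.0464. Gstt2 lost its call at -1.53 without a filter on dim probe sets and without the variance trend, and Gsta4 gained one at -1.14 with the floor at the 50th percentile. Gstt1 turned to -0.10 without high-fat array 2 and to -0.0747 with the Gapdh covariate, uncalled in each case. The cause of these shifts was not tested. The floor at the 50th percentile raised the lowest Gsta4 value, 125 on high-fat array 3. With each array left out, log2 fold changes ran from -1.79 to -1.62 for Gsta2, -1.72 to -1.33 for Gstt2, -1.61 to -1.03 for Gsta4, -0.47 to -0.17 for Gsta3 and -0.10 to 0.19 for Gstt1. Members called numbered 2, but 1 without the filter or the trend, 3 with the floor at the 50th percentile, and between 1 and 3 with an array left out. The 74 called probe sets became 8 without the filter, where 12422 were tested, 20 without the trend, between 26 and 75 with an array left out, and 38 with both arrays numbered 3 left out. List genes called numbered 2, but 1 with scaling to a common median or the floor at the 10th percentile, 0 without the filter, without the trend or with both arrays numbered 3 left out, 4 with the Gapdh covariate, 0 to 1 with an array left out, and 3, with Cyp3a25 added, with the floor at the 50th percentile, all 6 arrays above the floor, robust eBayes, array weights or plain _at probe sets alone. For the list genes named by the rule and the genes most like Gsta2 and Gstt2 no sign turned, and 24 of their values lost and 10 gained a call. Same-numbered arrays deviated together with correlations of 0.07, 0.11 and 0.31. High-fat array 1 correlated best with low-fat array 2, so the numbers were not taken as pairs. High-fat array 3, at 0.31 with low-fat array 3, correlated with low-fat arrays 1 and 2 at -0.12 and -0.21. Whether same-numbered arrays were processed together was not tested. With the replicate number as a block 103 probe sets were called, and Gsta2 and Gstt2 kept their calls at -1.68 and -1.53 (adjusted p = 0.000795 and 0.00429), while Abcg2 lost its call (0.0506) and Cyp3a25 (0.0110) and Tef (0.0171) gained one. Scaling alternatives moved the median of all probe sets by less than 0.01 on the log2 scale.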
